A study of Mus musculus with 20 samples.

Results

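The 10 genes described here encode parts of the Hippo pathway and were chosen by gene symbol from the 39179 genes of the expression table. They are the coactivator genes Yap1 (YAP) and Wwtr1 (TAZ), the gene of their DNA-binding partner Tead1, the kinase genes Lats1 and Lats2, the upstream regulator genes Nf2, Wwc1, Amotl1 and Amotl2, and the target gene Ctgf, now named Ccn2. Their transcript levels were measured by RNA sequencing in 20 single cells labelled as podocytes, epithelial cells whose foot processes cover the outside of the glomerular capillaries. All cells came from 1 mouse, a wild-type C57BL/6 male at 8 weeks of age, whose glomeruli were collected with magnetic beads, digested with enzymes and loaded on a Fluidigm C1, an instrument that places single cells in separate wells. The strain is spelled C56BL/6 on the samples and C57BL/6 in the design text. The cells form 1 group with no treated or mutant counterpart, so levels are described without a test, and every SD gives the spread between cells of this animal.

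The Hippo pathway is a chain of kinases that keeps the coactivators YAP and TAZ out of the nucleus. The MST kinases (genes Stk3 and Stk4) act with the adaptor SAV1 on the LATS kinases and their MOB1 cofactors. LATS then phosphorylates YAP and TAZ, which are held in the cytoplasm by 14-3-3 proteins or degraded. When the kinases are inactive, YAP and TAZ enter the nucleus and bind DNA through TEAD factors to switch on genes such as Ctgf. YAP is known to be needed by mouse podocytes, whose foot processes bear mechanical load from filtration. The pathway is controlled largely through phosphorylation and location of its proteins, which transcript levels do not show.

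Levels are given in RPKM, reads per kilobase of gene per 1000000 reads, and a gene counts as found where it had 1 RPKM or more. Each library held between 4205562 and 10448491 reads assigned to genes, with a median of 6753753, and between 2371 and 4977 genes were found per cell. Of 15 podocyte markers, each cell held 13 to 15, among them the slit diaphragm gene Nphs1. Cells 5, 6, 10, 11 and 14 also held 7 to 10 of 13 mesangial and mural markers, with a summed level of 2139 to 5564 RPKM, and the other 15 cells held 0 or 1, at 0.210 to 84.7 RPKM. Of that list, Acta2, Tagln and Ren1 were found in no cell. Cell 8 held 9 of 12 endothelial markers, at a summed 2432 RPKM, while Egfl7 and Erg of that list were found in no cell. Several results, though not all, are also given without these 6 cells.

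Among the 10 genes, 9 were found in at least 1 cell, and 5 were found in at least 10 of the 20 cells, namely Lats2 in 18, Tead1 in 15, Amotl2 in 14, Yap1 in 13 and Ctgf in 10. Over all 39179 genes of the table, 30.0% were found in at least 1 cell and 6.43% in at least 10. Wwtr1 was found in 9 cells, Nf2 and Amotl1 in 5 each, Lats1 in 3 and Wwc1 in none. None of the 10 was found in all 20 cells, as 0.664% of genes were. A cell held between 1 of the genes (cell 19, with Yap1 alone) and 9 (cell 10). Values were spread to both ends of the scale: of the 200 values, 57 were 0, 51 lay between 0 and 1 RPKM, 22 lay from 1 to below 10 RPKM and 70 were at 10 RPKM or more. The 22 of 200 values in the range from 1 to below 10 RPKM stand beside 23531 of 234980 for all 11749 genes found in at least 1 cell, a similar share. The ends differed: 28.5% of the values were 0, beside 52.0% for those genes, and 35.0% were at 10 RPKM or more, beside 19.2%. Loss of transcripts at capture or amplification also leaves a gene unseen, and its part in these values was not tested.

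**Figure D1:**
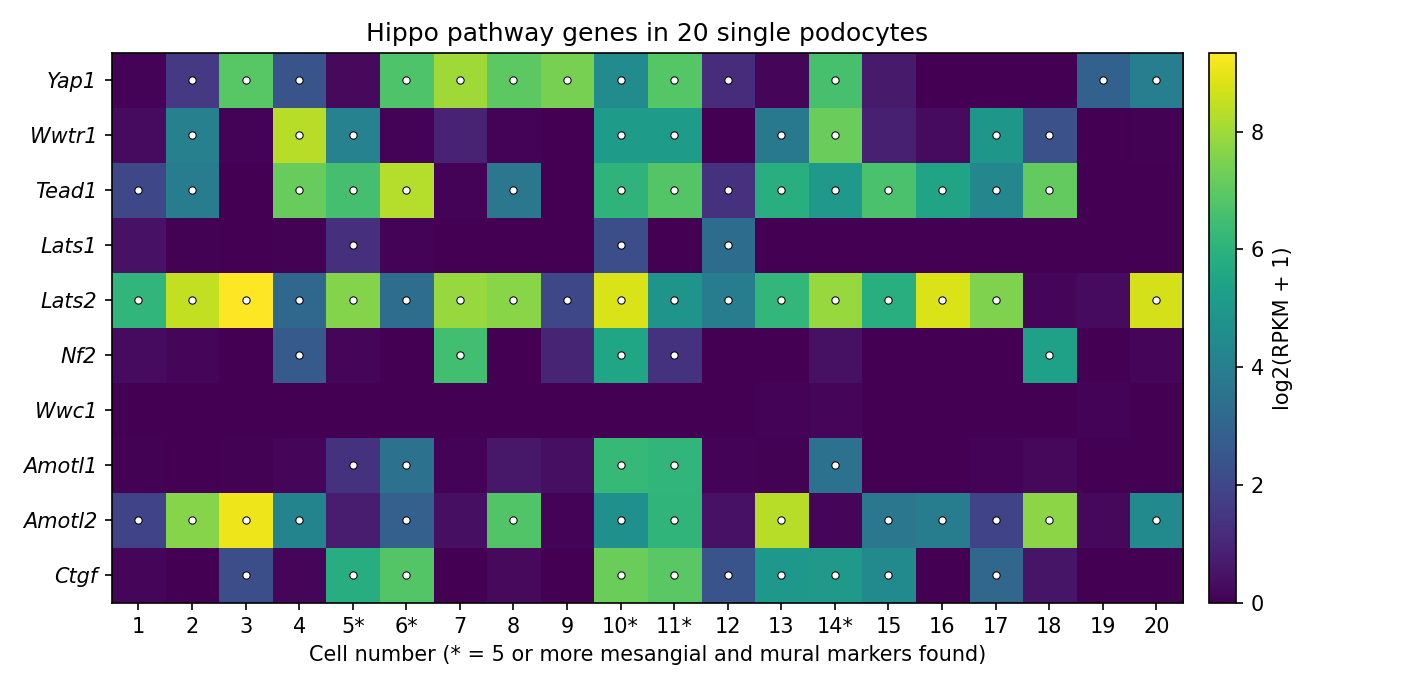
Level of each of the 10 genes (rows) in each of the 20 cells (columns), as log2(RPKM + 1) on the colour scale; a white dot marks a gene found at 1 RPKM or more, and an asterisk marks the 5 cells with 5 or more mesangial and mural markers. Lats2 carries dots in 18 columns and Wwc1 in none, and the 5 dots of Amotl1 all stand in columns with an asterisk.

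TEAD factors bind DNA at the motif GGAATG, so the promoters of the genes were searched for it on both strands, that is for GGAATG or CATTCC. Promoters were taken from RefSeq on build GRCm38.p6 as the 250 bases before and 50 bases after a RefSeq start. For Lats2 and Amotl2 that start lies inside the gene span given below, which is taken from GENCODE and begins further upstream. Of the 10 genes, 8 had a promoter in the table used, and 4 of these 8 held the motif, namely Yap1, Wwtr1, Lats2 and Amotl2. Lats1, Nf2, Wwc1 and Amotl1 held none. Of all 27025 genes with a promoter in the table, 16.6% held it, and of all 32851 promoters, each of the same length, 14.7% did. Among the 15 target genes with a promoter in the table, described further on, 7 held it. Shown are the promoters of the 4 genes with a match and, for contrast, that of Cyr61 (now Ccn1), a classical YAP and TAZ target that also holds the motif but had no read in any cell. Capitals mark the motif. They lie at chr9:8004547-8004846 for Yap1 (minus strand), chr3:57575861-57576160 for Wwtr1 (minus strand), chr14:57746074-57746373 for Lats2 (minus strand), chr9:102717554-102717853 for Amotl2 (plus strand) and chr3:145649936-145650235 for Cyr61 (minus strand).
Yap1: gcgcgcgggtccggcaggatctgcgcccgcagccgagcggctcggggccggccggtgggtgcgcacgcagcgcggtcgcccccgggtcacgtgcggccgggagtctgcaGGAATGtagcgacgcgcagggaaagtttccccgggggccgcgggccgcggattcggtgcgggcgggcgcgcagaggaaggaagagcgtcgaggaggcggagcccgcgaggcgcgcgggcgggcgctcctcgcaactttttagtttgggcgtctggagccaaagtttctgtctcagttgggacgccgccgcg
Wwtr1: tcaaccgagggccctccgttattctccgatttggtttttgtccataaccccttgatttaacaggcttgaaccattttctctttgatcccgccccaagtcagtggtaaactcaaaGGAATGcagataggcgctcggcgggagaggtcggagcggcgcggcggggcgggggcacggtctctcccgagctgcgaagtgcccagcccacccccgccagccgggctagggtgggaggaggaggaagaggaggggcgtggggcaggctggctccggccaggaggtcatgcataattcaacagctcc
Lats2: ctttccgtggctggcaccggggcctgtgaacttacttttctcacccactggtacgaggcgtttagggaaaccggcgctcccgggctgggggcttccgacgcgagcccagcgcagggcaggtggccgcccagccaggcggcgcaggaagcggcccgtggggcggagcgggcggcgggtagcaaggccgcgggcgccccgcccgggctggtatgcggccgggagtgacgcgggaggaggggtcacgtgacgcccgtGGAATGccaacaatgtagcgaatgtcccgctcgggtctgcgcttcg
Amotl2: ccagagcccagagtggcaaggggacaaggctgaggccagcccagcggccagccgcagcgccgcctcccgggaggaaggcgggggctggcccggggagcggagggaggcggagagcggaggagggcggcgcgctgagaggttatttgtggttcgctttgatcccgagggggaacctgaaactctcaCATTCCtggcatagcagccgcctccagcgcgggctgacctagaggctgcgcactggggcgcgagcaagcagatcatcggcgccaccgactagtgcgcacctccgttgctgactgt
Cyr61: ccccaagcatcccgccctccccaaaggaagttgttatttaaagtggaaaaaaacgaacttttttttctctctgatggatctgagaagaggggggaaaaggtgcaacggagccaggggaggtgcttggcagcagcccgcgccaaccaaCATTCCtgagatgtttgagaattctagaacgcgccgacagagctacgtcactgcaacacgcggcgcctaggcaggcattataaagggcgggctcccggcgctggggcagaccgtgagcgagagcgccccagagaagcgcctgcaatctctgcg
Relative to the RefSeq start of the promoter shown, the motif began 141 bases before it for Yap1, 136 before it for Wwtr1, 65 before it for Amotl2, 103 before it for Cyr61 and 4 after it for Lats2. A second annotated promoter of Wwtr1 overlaps the one shown and holds the same match, and a second one of Lats2 holds none. The letters alone do not show that a TEAD factor binds there.

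Yap1 encodes YAP, the coactivator that gives the pathway its main output. It lies on chromosome 9, at 7931999 to 8004596 on the minus strand (GRCm38). It was found in 13 cells, and its values ran from 0 over a median of 5.43 RPKM to 259 RPKM in cell 7, with a mean of 52.2 ± 74.7 RPKM (SD, n = 20 cells). Cells fell apart widely: cells 3, 6, 7, 8, 9 and 11 were above 100 RPKM and cell 14 was at 96.7 RPKM, while cells 16, 17 and 18 had no Yap1 read at all. The 3597 reads in cell 7 and the single read in cell 1 came from libraries of similar depth, with 6771181 and 6404472 assigned reads. At 1 RPKM, Yap1 corresponds to 8.63 to 21.4 reads in a library, and a count of 0 allows up to 0.140 to 0.348 RPKM, the value of 3 reads. Such limits hold for counting error alone, since reads copied by amplification do not stand for separate molecules. Yap1 shares 116 exon bases with Gm20416, a transcript of the opposite strand that had no read in any cell.

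Wwtr1 encodes TAZ, the paralog of YAP with which it shares much of its role. It lies on chromosome 3, at 57455649 to 57575910 on the minus strand. Wwtr1 was found in 9 cells, from 0 over a median of 0.850 RPKM to 319 RPKM in cell 4, with a mean of 30.6 ± 75.3 RPKM (SD, n = 20 cells). That 1 cell held 9138 of the 18456 Wwtr1 reads in all cells. Cell 14 followed with 145 RPKM, then cells 10 and 11 with 33.9 and 33.8 RPKM. Cell 7, with the highest Yap1, stood just under the threshold for Wwtr1 at 0.928 RPKM. Between the paralogs, Yap1 had the higher RPKM in 9 cells and Wwtr1 in 11, so neither was the higher one throughout. The 11 include cells 1, 15 and 16, in which neither gene reached 1 RPKM.

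Tead1 encodes the TEAD factor through which YAP and TAZ reach DNA. It lies on chromosome 7, at 112679318 to 112906807 on the plus strand. It was found in 15 cells; 3.05% of all genes were found in at least 15. Its values ran from 0 over a median of 25.7 RPKM to 313 RPKM in cell 6, with a mean of 57.5 ± 77.6 RPKM (SD, n = 20 cells). Cells 3, 9, 19 and 20 had no Tead1 read, and cell 7 had 0.0598 RPKM. Among the TEAD genes, Tead1 was the highest in most cells: it was higher than Tead2, Tead3 and Tead4 in 16 cells each, lower in 1 and equal in 3. Tead2 was found in 2 cells, at up to 4.18 RPKM, Tead4 in 2, at up to 24.4 RPKM in cell 20, and Tead3 in none.

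Counted together, at least 1 of the coactivator genes was found in 17 cells, and Tead1 with at least 1 of them in 12. All 3 genes were found in cells 2, 4, 10, 11 and 14. Yap1 and Tead1 without Wwtr1 were found in cells 6, 8 and 12, and Wwtr1 and Tead1 without Yap1 in cells 5, 13, 17 and 18. Yap1 without either of the others was found in cells 3, 7, 9, 19 and 20, and Tead1 without either coactivator in cells 1, 15 and 16. The 9 cells with Wwtr1 thus all held Tead1, while the 5 cells without Tead1 all held Yap1. Those 5 cells were among the lowest in genes found, at 2492 to 3000, and of the other cells only cell 12, at 2371, was as low. How many other genes nest in the same way was not counted. The counts of cells also depend on the threshold. Above 0 RPKM, 3 cells held Wwtr1 without Tead1 and none lacked both coactivators, and with each cell rescaled to a sum of 1000000, cell 7 held Wwtr1 without Tead1. All 3 genes together were counted in 12 cells above 0 RPKM, in 3 at 5 RPKM, and in 2 of the 14 cells left without cells 5, 6, 8, 10, 11 and 14.

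**Figure D2:**
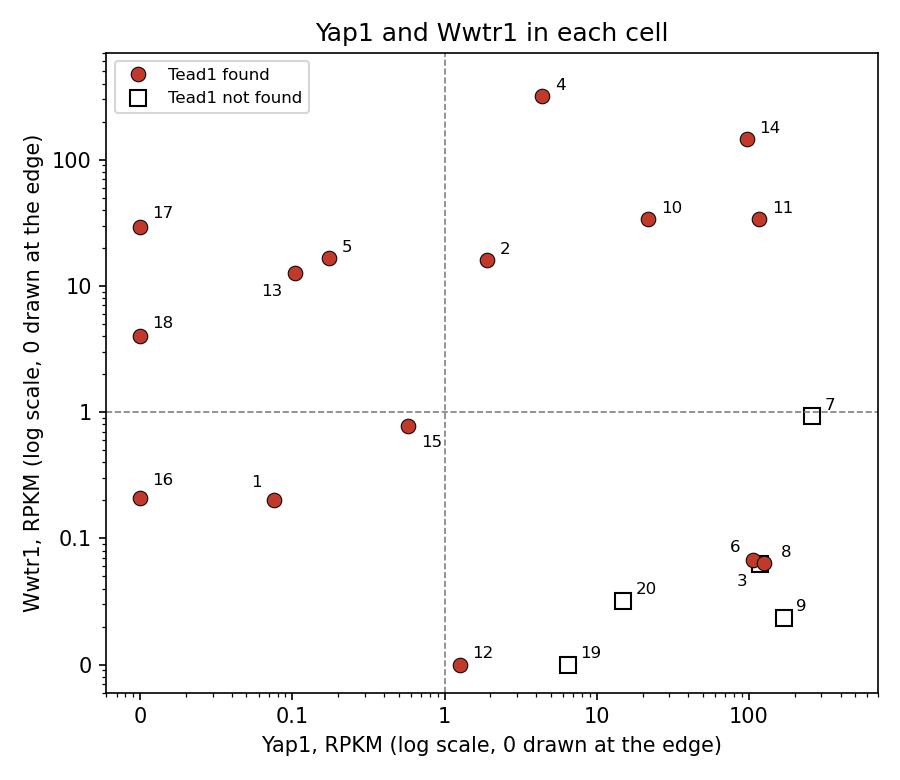
Wwtr1 against Yap1 in RPKM, both on log axes with 0 drawn at the edge, with 1 point per cell and its cell number; filled circles are cells in which Tead1 was found, open squares cells in which it was not, and dashed lines mark 1 RPKM. All 5 squares lie below the horizontal line, at Yap1 of 6.47 RPKM or more, and all 9 cells above that line are circles.

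Lats1 and Lats2 encode the kinases that phosphorylate YAP and TAZ, and of these Lats2 was the higher one in each cell. Lats2 (chromosome 14, 57689662 to 57758388, minus strand) was the highest of the 10 genes, running from 0.0967 RPKM in cell 18 over a median of 128 RPKM to 645 RPKM in cell 3, with a mean of 181 ± 192 RPKM (SD, n = 20 cells). It had reads in every cell, and 394 genes of the table had a higher median. Only cells 18 and 19, at 0.0967 and 0.200 RPKM, did not reach the threshold. Lats1 (chromosome 10, 7681214 to 7716460, plus strand) had no read in 11 cells, a median of 0 and a maximum of 8.79 RPKM in cell 12. Cell 10 held 3.70 RPKM of Lats1 and cell 5 held 1.40 RPKM, and it stayed below 1 RPKM in the other 17. Lats2 was higher than Lats1 in 20 of 20 cells. In the annotation Lats2 shares 2955 exon bases with Gm49361, a gene model on the same strand that is not among the genes of the expression table. Whether reads of that model were counted to Lats2 was not tested.

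The upstream regulators stand between cell junctions or the cell cortex and the kinases. Nf2 encodes merlin, which brings LATS to the membrane. It lies on chromosome 11, at 4765845 to 4849536 on the minus strand. It was found in 5 cells, at 91.1 RPKM in cell 7, 43.4 in cell 10, 39.2 in cell 18, 5.21 in cell 4 and 1.55 in cell 11, with a median over all cells of 0.0920 RPKM. Cell 9 lay just under the threshold at 0.973 RPKM, and 9 cells had no read. Wwc1 encodes KIBRA, a partner of merlin, on chromosome 11 at 35838400 to 35980527 (minus strand). It had 3 reads in all, 1 each in cells 13, 14 and 19, with a maximum of 0.0870 RPKM. A count of 0 for Wwc1 allows up to 0.153 to 0.381 RPKM in a library. Its paralog Wwc2 was found in 9 cells, with up to 159 RPKM in cell 17.

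The angiomotins bind YAP and TAZ directly and hold them at junctions and on actin. Amotl2 (chromosome 9, 102716672 to 102733418, plus strand) was the angiomotin of most cells. It was found in 14 and had reads in all 20, from 0.0549 RPKM in cell 9 over a median of 13.3 RPKM to 549 RPKM in cell 3, with a mean of 78.1 ± 142 RPKM (SD, n = 20 cells). Cells 2, 8, 13 and 18 were also above 100 RPKM. Cell 3 held the highest level of both Lats2 and Amotl2, but over all 20 cells these genes had a Spearman correlation of only 0.29. Amotl1 (chromosome 9, 14541966 to 14645056, minus strand) was found in 5 cells, and Amot, the third of the family, also in 5, at up to 13.2 RPKM in cell 15. Amotl2 was higher than Amotl1 in 14 cells and lower in 6.

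Amotl1 and Ctgf were the genes of the set whose levels went with mesangial and mural markers. Amotl1 stood at 1.56, 10.5, 75.8, 70.1 and 10.4 RPKM in cells 5, 6, 10, 11 and 14, which held 7 to 10 of the 13 markers. In the other 15 cells, with 0 or 1 marker, it reached at most 0.519 RPKM, in cell 8, so that without cells 5, 6, 8, 10, 11 and 14 it was found in 0 of 14 cells. Ctgf, a secreted matrix protein and a classical YAP and TAZ target (chromosome 10, 24595442 to 24598683, plus strand), stood at 56.1, 112, 150, 123 and 31.7 RPKM in the same 5 cells. Elsewhere it was found in cells 13, 15, 17, 12 and 3, at 30.6, 21.1, 7.41, 4.40 and 3.68 RPKM. The ranges thus did not overlap for either gene, narrowly so for Ctgf. The share of all genes that separate these cells in this way was not counted. Whether the split is particular to Amotl1 and Ctgf is therefore not known. The 5 cells also held more genes found, 3425 to 4977, beside 2371 to 4082 in the other 15. The part of that number in the split was not tested. Tead1 and Lats2 were also found in all 5 of these cells, but their ranges there overlapped those in the other 15. Over all 20 cells Ctgf had a median of 2.06 RPKM and a mean of 27.1 ± 46.6 RPKM (SD, n = 20 cells). Its median lies in a gap between values: without cell 12, the cell with the fewest genes found, it was 0.446 RPKM, and without cells 5, 6, 8, 10, 11 and 14 it was 0.0909 RPKM. The part of mesangial RNA or cells in these levels was not tested. Ctgf shares 665 exon bases with Gm15270 on the opposite strand, found in 1 cell at 3.91 RPKM. The sources used here do not say whether reads were counted by strand, so reads of the shared bases cannot be told apart.

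**Figure D3:**
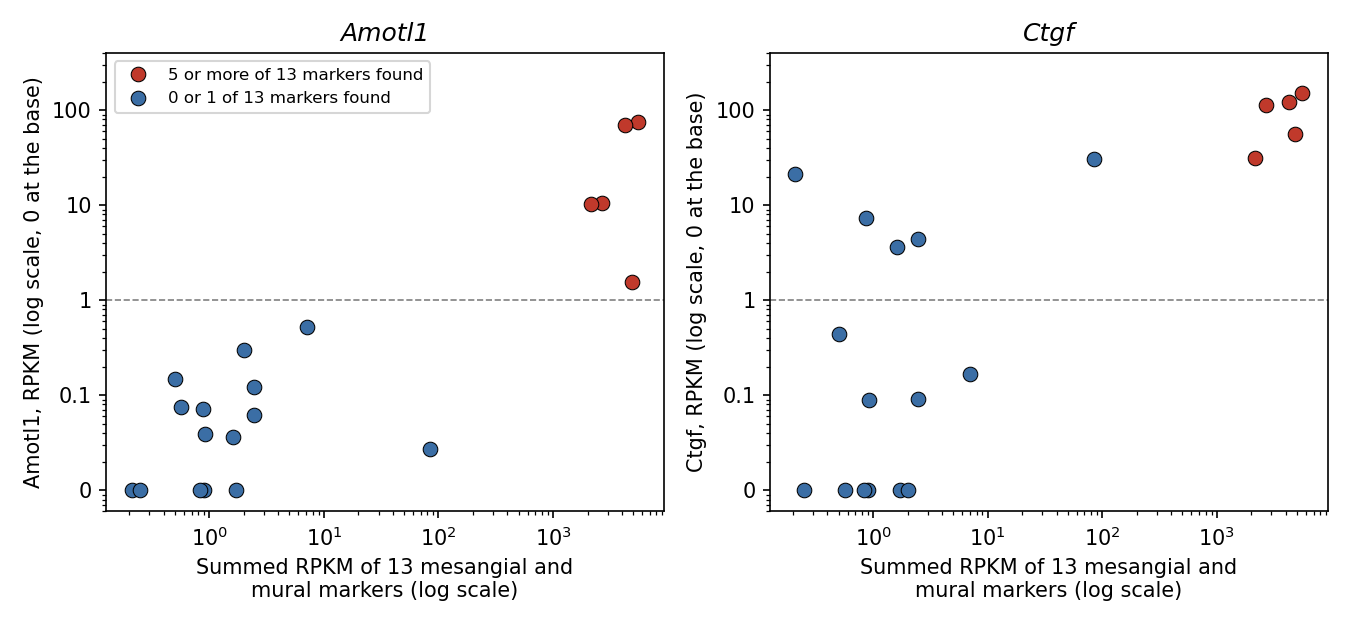
Level of Amotl1 (left) and Ctgf (right) in RPKM against the summed RPKM of 13 mesangial and mural markers, all on log axes with 0 drawn at the base, with 1 point per cell; red points are the 5 cells with 5 or more of the markers, blue points the other 15, and the dashed line marks 1 RPKM. For Amotl1 the red points lie above the line and the blue points below it, and for Ctgf the lowest red point, at 31.7 RPKM, lies just above the highest blue point, at 30.6 RPKM.

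Among other genes of the pathway lists, picked here after their values were seen, Nt5e and Ccdc80 were also found in cells with these markers and in no others. The share of all genes found only in such cells was not counted. The target genes Nt5e, which encodes an ecto-nucleotidase, and Ccdc80, a matrix protein gene, were found in 4 and 3 cells, all among cells 5, 10, 11 and 14. Nt5e stood at 2.09, 60.9, 210 and 164 RPKM in cells 5, 10, 11 and 14, and Ccdc80 at 8.49, 75.1 and 34.5 RPKM in cells 10, 11 and 14. F3, the tissue factor gene, did not follow that pattern: it stood at 306, 304 and 278 RPKM in cells 10, 13 and 14, and was also found in cells 15 and 19.

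In order of median RPKM, which is a level per length, the genes ran Lats2, Tead1, Amotl2, Yap1, Ctgf, Wwtr1, Nf2, Amotl1, Lats1 and Wwc1. Neighbours in this order were called different beyond their spread where 1 of the pair was higher in at least 15 of 20 cells. Only Lats2 over Tead1 met this, with Lats2 higher in 15 cells and lower in 5. Tead1 was above Amotl2 in 11 cells and below it in 9, and Amotl2 above Yap1 in 12 and below it in 8. Yap1 was above Ctgf in 9 cells and below it in 10. No other pair of neighbours met the rule. Medians were lower without cells 5, 6, 8, 10, 11 and 14, at 70.2 RPKM for Lats2, 8.86 RPKM for Tead1, 1.59 RPKM for Yap1 and 0.492 RPKM for Wwtr1, while that of Amotl2 was again 13.3 RPKM. In those 14 cells, Yap1 was found in 8, Wwtr1 in 5, Tead1 in 9, Lats2 in 12, Amotl2 in 10, Ctgf in 5, Nf2 in 3 and Lats1 in 1. The length behind the values was 2010 bases for Lats2, 2468 for Tead1 and 2052 for Yap1, against longest transcripts of 5191, 9964 and 5282 bases. With the longest transcript as length, the medians of Lats2, Tead1 and Yap1 would be 49.5, 6.38 and 2.11 RPKM.

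**Figure D4:**
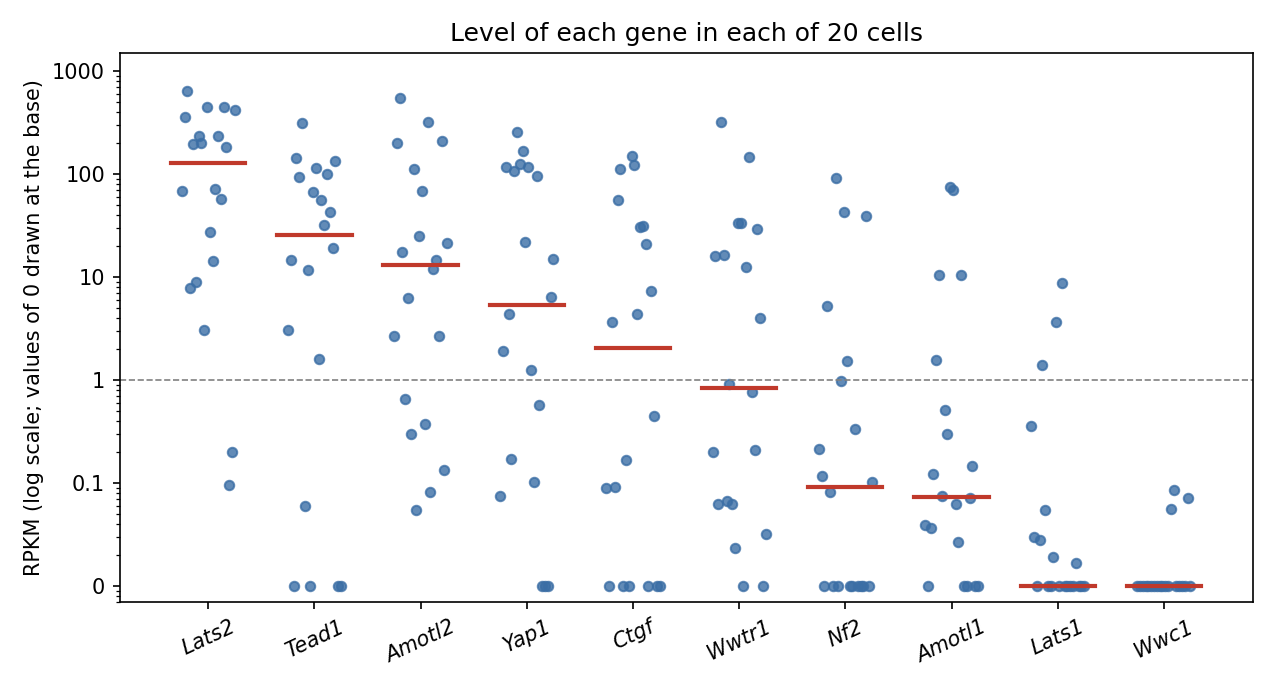
RPKM of each of the 10 genes on a log axis with values of 0 drawn at the base, with 1 point per cell and a red line at the median over 20 cells; the dashed line marks 1 RPKM. Medians run from 128 RPKM for Lats2 to 0 for Lats1 and Wwc1, and the points of neighbouring genes overlap widely.

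Across cells, Wwtr1 and Tead1 had a Spearman correlation of 0.65 (n = 20 cells), the highest among pairs without Amotl1 by that measure, and a Pearson correlation of log2(RPKM + 1) of 0.55. By Pearson correlation Tead1 with Ctgf was higher, at 0.60, and with the number of genes found removed, Wwtr1 with Nf2 was, at 0.62. The Spearman correlation of Wwtr1 with Tead1 was 0.65 without the 2 cells farthest from the median of Wwtr1. In the 14 cells left without cells 5, 6, 8, 10, 11 and 14 it was 0.75. Both genes were higher in cells with more genes found: the Spearman correlation with that number was 0.69 for Wwtr1 and 0.58 for Tead1, beside a median of 0.161 over other genes. With the number of genes found removed, the correlation of Wwtr1 with Tead1 was 0.42. The cells come from 1 animal and share these properties of their libraries, so the values are descriptions.

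Yap1 did not follow Tead1 in this way. Their Spearman correlation was -0.32 (n = 20 cells), and -0.28 with the number of genes found removed. It was -0.13 without the 2 cells farthest from the median of Yap1 and -0.68 in the 14 cells without cells 5, 6, 8, 10, 11 and 14. In those 14 cells the Spearman correlation with the number of genes found was -0.60 for Yap1 and 0.66 for Tead1, and its part in the -0.68 was not tested. Yap1 and Wwtr1 had a Spearman correlation of -0.19 over all 20 cells and of -0.37 in those 14 cells. The Pearson correlations of log2(RPKM + 1) were -0.28 for Yap1 with Tead1 and -0.10 for Yap1 with Wwtr1. In Spearman correlation, Ctgf had 0.62 with Tead1, 0.48 with Wwtr1 and -0.03 with Yap1. Its Pearson correlation was 0.60 with Tead1 and 0.38 with Wwtr1, and without the 2 cells farthest from the median of Tead1 its Spearman correlation with Tead1 was 0.64. With the number of genes found removed, Ctgf had 0.44 with Tead1 and 0.15 with Wwtr1, and Ctgf itself had 0.57 with that number. In the 14 cells without cells 5, 6, 8, 10, 11 and 14, Ctgf had 0.49 with Tead1, 0.30 with Wwtr1 and -0.45 with Yap1. Without the 2 cells farthest from the median of Yap1, Ctgf had 0.25 with Yap1, so that relation has no settled sign. Over all 28 pairs of the 8 genes found in at least 5 cells, those of Amotl1 included, 17 correlations were positive and 11 negative. Their median was 0.158, beside 0.0264 over pairs of 4125 genes. Those genes averaged 10 RPKM or more, which Nf2 and Amotl1 did not. With the number of genes found removed the medians were 0.091 and 0.00151. Without cells 5, 6, 8, 10, 11 and 14 they were 0.104 and 0.0207.

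The wider target list was the 22-gene YAP and TAZ signature known from human cancers, of which Ctgf, Lats2 and Amotl2 are part. Of the 22, 10 were found in at least 10 cells, 7 in 1 to 9 and 5 in none. Highest by median were Lats2, the RNA-binding protein gene Rbms3 at 107 RPKM in 17 cells, the membrane protein gene Crim1 at 30.4 RPKM in 19 cells, and Dock5, an activator of the GTPase Rac, at 20.6 RPKM in 17 cells. Myof, myoferlin, had a median of 4.65 RPKM with 15 cells. Axl, a receptor tyrosine kinase, had a median of 1.87 RPKM and was found in 10 cells. Cyr61, Igfbp3, Fjx1 and Foxf2 had no read in any cell, and Tgfb2 reached at most 0.0696 RPKM. The classical targets were thus found in different numbers of cells: Ctgf in 10, Ankrd1 in 1 and Cyr61 in 0.

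For 12 of the 22 target genes, those found in at least 5 cells and averaging 10 RPKM or more, the Spearman correlations with Yap1 had a median of -0.09, with 3 positive and 9 negative. Those with Wwtr1 had a median of 0.14, with 10 positive and 2 negative, and those with Tead1 also a median of 0.14, with 9 positive and 3 negative. Over 4124 genes the medians were -0.0122 with Yap1, 0.109 with Wwtr1 and 0.0765 with Tead1, on the same side of 0 as the targets. Without cells 5, 6, 8, 10, 11 and 14, the median of the targets was -0.27 with Yap1, 0.16 with Wwtr1 and 0.13 with Tead1, beside -0.0596, 0.0858 and 0.0536 over the other genes. The widest values were -0.60 for Myof with Yap1, 0.56 for Rbms3 with Wwtr1 and 0.62 for Ctgf with Tead1.

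The rest of the pathway was found to differing extents. Of 79 genes in 8 lists by role, the 10 genes included, 26 were found in at least 10 cells, 38 in 1 to 9 and 15 in none. Core kinases and their adaptors had 2 of 7 in at least 10 cells, namely Lats2 and Mob1a, a LATS cofactor with a median of 5.89 RPKM and 13 cells. The MST kinase genes Stk3 and Stk4 were found in 4 and 6 cells and the adaptor gene Sav1 in 3, each at a median under 0.1 RPKM. Stk4 still reached 286 RPKM in cell 18 and Sav1 104 RPKM in cell 14. Of the 10 kinases that act above or beside MST, Taok1 was the 1 found in at least 10 cells, in 16 at a median of 15.4 RPKM, and Map4k1 and Tnik were found in none.

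Among 16 junctional and upstream regulators, 4 were found in at least 10 cells and 3 in none. The 4 were Tjp1, which encodes the junction scaffold ZO-1, in 19 cells at a median of 78.6 RPKM, the giant cadherin gene Fat1 in 18 at 22 RPKM, Ptpn14, a phosphatase that binds YAP, in 16 at 4.05 RPKM, and Amotl2. Those in none were Wwc1, the cadherin gene Fat4 and its ligand gene Dchs1, of which Fat4 and Dchs1 had no read. Of 10 genes of STRIPAK, a phosphatase complex that restrains the MST kinases, 5 were found in at least 10 cells, among them the scaffolds Strn3 in 15 at 30.4 RPKM and Strn in 13 at 18.1 RPKM. Near-identical copies elsewhere cover 2.73% and 2.83% of their longest transcripts. By the median of gene medians, the 14-3-3 genes were the highest of the lists, at 47.0 RPKM, but they differed widely. Ywhae was found in every cell at a median of 2438 RPKM, Ywhaz in 19 at 2020 RPKM and Ywhaq in every cell at 169 RPKM. Ywhab, Ywhah and Ywhag had medians of 47.0, 11.8 and 0.316 RPKM, and Sfn had no read. Copies cover 22.4% of the longest transcript of Ywhaz and 36.8% of that of Ywhaq, so their levels are uncertain. Of the Vgll genes, whose products also bind TEAD factors, Vgll4 was found in 9 cells, with up to 690 RPKM in cell 12, Vgll3 in 3, and Vgll1 and Vgll2 had no read.

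**Figure D5:**
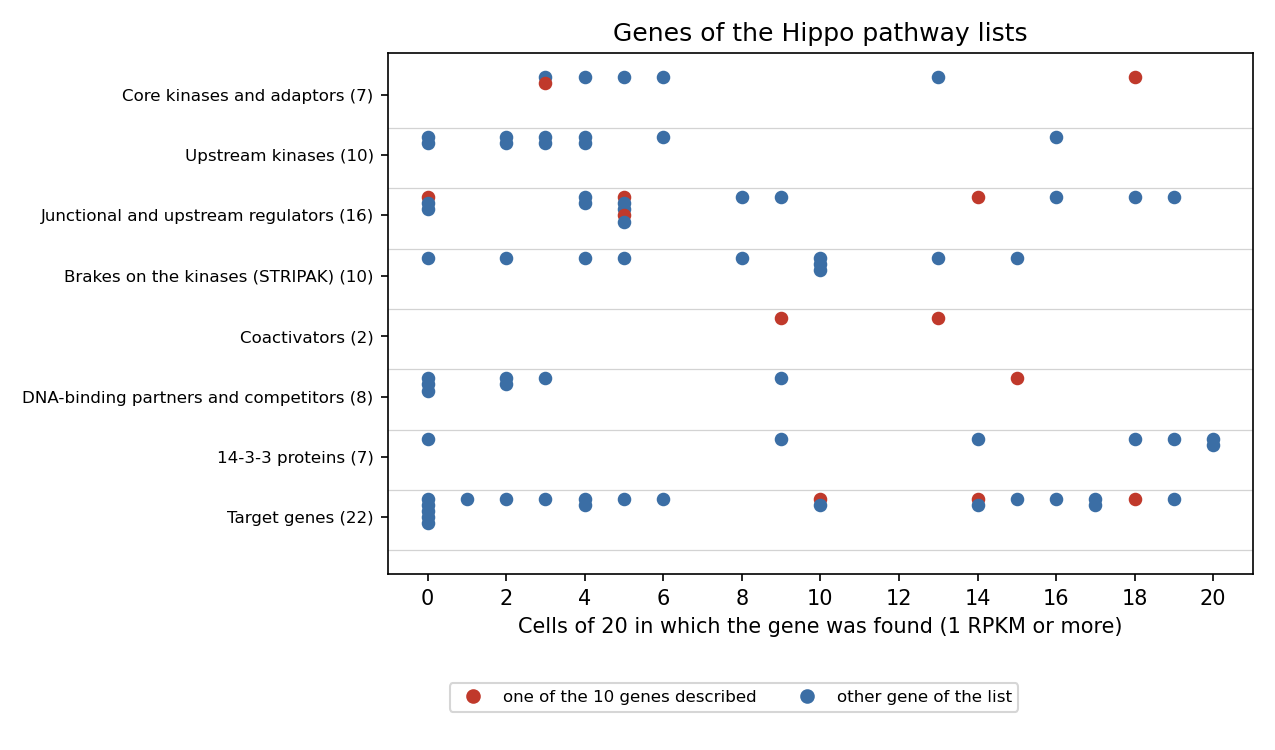
Number of the 20 cells in which each gene of the 8 lists was found (1 RPKM or more), with 1 point per gene; rows are the lists with their number of genes, red points are the 10 genes described and blue points the other genes, and points at the same place are stacked. Of the 7 14-3-3 genes, 2 reach 20 cells and 1 was found in none, and most upstream kinases stand at 6 cells or fewer.

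Set against genes of similar mean level, the genes differed in how much they varied from cell to cell. Variation was taken as the squared coefficient of variation relative to its trend on the mean. It is given as a percentile among the 5470 genes that averaged 10 RPKM or more. A low percentile means less variation than in genes of similar mean, not an even level. Tead1 lay at 11.1, Ctgf at 11.4, Yap1 at 12, Lats2 at 24.2, Wwtr1 at 43.6 and Amotl2 at 46.2. With the SD of log2(RPKM + 1) in its place, Ctgf lay at 73.3 and Yap1 at 63.8, whereas Lats2 lay at 22.1 and Tead1 at 35.6. The measures differ most for Ctgf and Yap1. Without cells 5, 6, 8, 10, 11 and 14, the coefficient of variation placed Wwtr1 at 70.1 and Yap1 at 29.9. Lats1, Nf2, Wwc1 and Amotl1 had means below 10 RPKM and were not placed.

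The genes whose levels across the 20 cells were most like those of each gene were taken as the 3 with the highest Spearman correlation among 3937 genes (3938 for Nf2 and Amotl1), so their values are high by choice. For Yap1 these were Senp6 at 0.76, Rapgef4 at 0.69 and Slc35a1 at 0.67. For Wwtr1 they were Iars at 0.85, Pacsin2 at 0.80 and Tanc1 at 0.80, and for Tead1 Tpm4 at 0.77, Commd3 at 0.77 and Galnt1 at 0.76. Lats2 was closest to Atp6v1e1 at 0.84, followed by Fam98b and Senp7 at 0.72 each, and Amotl2 to Mrfap1 at 0.76, Polr2k at 0.76 and Tmed4 at 0.72. Nf2 was closest to Btg1 at 0.75, Slc33a1 at 0.73 and Slc38a6 at 0.68. Ctgf was closest to Ifit3 at 0.87, Plscr1 at 0.82 and Maf at 0.81, genes found in only 7, 5 and 6 cells. Ifit3 and Plscr1 had a median of 0 RPKM. In the 14 cells without cells 5, 6, 8, 10, 11 and 14, the first of each had 0.72 for Yap1, 0.89 for Wwtr1, 0.80 for Tead1, 0.86 for Lats2, 0.76 for Amotl2, 0.80 for Nf2 and 0.74 for Ctgf. Plscr1 and Maf had 0.66 and 0.60 with Ctgf there. Those 14 cells are part of the 20 by which the genes were chosen, so these values are no separate check. For Amotl1 the closest genes were Rgs2, Slc12a2 and Bgn. Their pooled correlations are not given, since its values fall into the 5 cells named above and the rest. No gene was among the 3 closest of more than 1 of the 8 genes.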

How the data were processed

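The authors deposited 1 table of RPKM values (reads per kilobase of gene per 1000000 reads) with 39179 rows, named by Ensembl ID, and 1 column for each of 20 single cells of 1 mouse. The tools were HTSeq 0.6.1 and TopHat2 2.0.12, on GRCm38, per the submitters' processing notes; their settings are not stated in the sources used here. A single blank cell of it (1 value) was read as 0. GENCODE M21 gave symbols and coordinates for 37607 of the IDs. The gene whose table symbol is Ctgf is named Ccn2 there. The 10 genes were matched by symbol. Cells were numbered in accession order, and no number carries a meaning.

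RPKM values were turned back into reads: each value is a read count over gene length and library total, so that ratios of a gene's values between libraries give the totals, and genes with 1 annotated transcript set the scale. Of 841 nonzero values of the listed genes, 841 came out whole within 0.01 read. No count test was run, because there is 1 group. Cells of 1 animal are not replicates, and no p-value is given. The recovered length can be a fraction of the true one, in which case reads are too. Values summed to 542042 to 611232 RPKM per cell and were not rescaled.

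The 10 genes, the pathway lists and the marker lists were chosen with earlier results of these data known. The genes named are the 10, all genes of 8 pathway lists, and for each of the 10 found in at least 5 cells the 3 genes with the highest Spearman correlation. These 3 were taken from genes with an official symbol found in at least 5 cells with a mean of at least 10 RPKM. Near-identical copies were sought with BLAST+ 2.17.0 (at least 98% identity over at least 100 bases), and none was found for the 10 genes. A loess trend (span 0.3) was used for variation. The steps were tested on simulated data. Alternatives were detection above 0 or at 5 RPKM, rescaling each cell to 1000000, another gene length, other measures of correlation and variation, and omission of the cell lowest in genes found or of the 6 cells with 5 or more mesangial or 6 or more endothelial markers. Protein sequences were not analysed here. The sources used here do not say whether a well held more than 1 cell, and no doublet caller was run. Computations used Python 3.11.15, numpy 2.4.6, scipy 1.17.1 and pandas 2.3.3.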

Additional observations from a re-analysis of the deposited data

How the results depend on the processing

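The counts rest most on the threshold. The 10 genes were found in 92 of the 200 values of gene and cell at 1 RPKM and in 143 above 0 RPKM, and the pathway lists had 26 genes found in at least 10 cells at 1 RPKM and 42 above 0. Without cells 5, 6, 8, 10, 11 and 14, 6 of the 10 genes kept their rank by median; the order was then Lats2, Amotl2, Tead1, Yap1, Wwtr1, Ctgf, Nf2, Amotl1, Lats1 and Wwc1. The median percentile of variation over the 6 genes placed was 43.8 with the SD of log2(RPKM + 1) and 18.1 with the coefficient of variation. The cause of these shifts was not tested. Weak correlations of single pairs changed sign: Yap1 with Ctgf was -0.03 by Spearman, 0.10 by Pearson of log2(RPKM + 1) and 0.08 with the number of genes found removed, and Yap1 with Wwtr1 was -0.10 by Pearson and 0.02 by Pearson without the 2 cells farthest from the median of Yap1. No paired analysis was possible because there is 1 group and no test. Depth limits the reading of zeros: a count of 0 allows up to 0.0505 RPKM in the deepest library for Lats1 and 0.491 RPKM in the shallowest for Nf2.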

Other observations

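Ankrd1, a classical YAP target found in 1 cell, stood at 85.8 RPKM in cell 7, the cell with the highest Yap1, at 259 RPKM. It had no read in 18 cells and 0.705 RPKM in cell 17. Cell 7 also held the highest Nf2, at 91.1 RPKM, and the highest Dock5, at 201 RPKM. Tead1 was at 0.0598 RPKM and Ctgf at 0 in that cell. This cell was picked after its values were seen, and 1 cell gives no measure of error.

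Cell 19 stood out by its few genes of the set, with Yap1 alone found, at 6.47 RPKM. It held Vgll3 at 176 RPKM and Vgll4 at 563 RPKM, genes whose products also bind TEAD factors, and had no Tead1 read. Vgll3 was found elsewhere in cells 11 and 15, at 1.72 and 84.7 RPKM. Its 7460142 assigned reads and 3000 genes found lay within the range of the other cells. These cells, too, were picked after their values were seen.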
